A study of Mus musculus with 6 samples.

Results

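The clotting genes described here are 32 mouse genes for clotting factors, fibrinogen, the contact system and the plasma inhibitors that restrain them, most of them made by hepatocytes. They were chosen by name from a list of these functions, with earlier results of these data known, and all 32 have a row among the 24167 genes of the count table. Of them, 31 passed the filter on low counts, as did 15567 genes in all, and Serpina5 did not. Metastases grew in the livers of female BALB/c mice, 6 to 8 weeks old, from injected 4T1 cells, a mouse mammary carcinoma line without hormone receptors or HER2. The injected cells carried either a hairpin against Zdhhc17 (shZdhhc17) or a scrambled hairpin (shSCR), each on a lentiviral vector with puromycin selection, and 500000 cells were injected hydrodynamically into the tail vein. Metastases were dissected under a microscope on day 10, with 3 libraries per group, and the host liver and blood cells in them carried no hairpin. The product of Zdhhc17 is an enzyme that adds the fatty acid palmitate to other proteins. The labels name mice as the source in each group without tying a library to a single mouse, so the p-values speak of the spread among these 6 libraries only.

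Blood clotting is a chain of proteases, each cut from an inactive precursor in plasma, that ends with thrombin turning fibrinogen into fibrin. The liver makes most of these precursors. Several of them carry carboxylated glutamates that need vitamin K and let them bind membranes. Antithrombin and related serpins, and the protein C system, stop the chain, and plasmin dissolves the clot afterwards.

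Promoter sequences are shown for the 3 fibrinogen chains, which lie side by side in the genome and kept nearly the same proportions in every library, and for Hrg, the member with the largest fold change below. They are windows of 300 bases, 250 before and 50 after the annotated start, from RefSeq on GRCm38.p6, an older build than the GRCm39 of the counts, and are printed 5′ to 3′ on the gene's strand. The windows are chr3:83025903-83026202 (plus strand) for Fga, chr3:83049814-83050113 (minus strand) for Fgb, chr3:83007474-83007773 (plus strand) for Fgg and chr16:22950822-22951121 (plus strand) for Hrg. Capitals mark letters that match TTCNNNGAA (STAT family), TTGCNNAA (C/EBP family) or CAAAGNNCA (HNF4) on either strand.
Fga: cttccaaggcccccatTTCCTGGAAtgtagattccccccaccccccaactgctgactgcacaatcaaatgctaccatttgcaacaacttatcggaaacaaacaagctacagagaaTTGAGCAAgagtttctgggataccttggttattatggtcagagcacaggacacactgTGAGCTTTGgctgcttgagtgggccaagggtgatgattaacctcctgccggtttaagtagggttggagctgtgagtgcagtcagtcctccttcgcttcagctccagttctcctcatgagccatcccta
Fgb: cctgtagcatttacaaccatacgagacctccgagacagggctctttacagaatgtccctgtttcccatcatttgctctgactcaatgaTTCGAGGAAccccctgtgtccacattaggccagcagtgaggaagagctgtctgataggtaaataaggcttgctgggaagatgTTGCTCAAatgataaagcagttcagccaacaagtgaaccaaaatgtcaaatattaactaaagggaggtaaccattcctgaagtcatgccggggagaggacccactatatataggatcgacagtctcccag
Fgg: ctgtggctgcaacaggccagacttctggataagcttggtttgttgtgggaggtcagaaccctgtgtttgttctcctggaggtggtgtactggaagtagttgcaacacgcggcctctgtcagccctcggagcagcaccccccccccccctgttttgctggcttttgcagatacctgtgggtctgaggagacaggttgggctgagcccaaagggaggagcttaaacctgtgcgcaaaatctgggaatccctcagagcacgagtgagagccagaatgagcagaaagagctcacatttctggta
Hrg: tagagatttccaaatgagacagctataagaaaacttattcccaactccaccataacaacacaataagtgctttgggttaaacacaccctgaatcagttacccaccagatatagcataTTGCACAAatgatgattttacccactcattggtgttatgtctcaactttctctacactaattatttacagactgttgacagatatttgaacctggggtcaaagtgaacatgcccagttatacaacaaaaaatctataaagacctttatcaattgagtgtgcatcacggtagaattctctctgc
Windows were found for 28 members, 29 windows in all. C/EBP letters stood in 41.4% of the members' windows, against 10.8% of all 32851 windows in the table. HNF4 letters stood in 24.1% of the members' windows, against 6.36% of all. STAT letters stood in 13.8% of the members' windows, those of Fga, Fgb, F9 and Pros1, against 8.30% of all. The HNF1 motif stood in 2 members' windows, those of F13b and Habp2, or 6.90%, against 0.399% of all. The Fgg window held none of these letters. A match describes the letters in the window and is no evidence of binding.

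Levels are given as CPM, that is, counts relative to the TMM-normalized size of each library, in the order of replicates 1, 2 and 3. Total counts ran from 15832837 to 19186615 per library. The targeted gene Zdhhc17 averaged 26.5 ± 1.07 CPM with shZdhhc17 and 33.4 ± 0.902 CPM with shSCR (n = 3 each, ± SD; log2 fold change -0.33 ± 0.11 SE; edgeR adjusted p = 0.383). Carcinoma and liver transcripts were both present in every library. The 12 mammary carcinoma markers summed to 4649, 3684 and 3305 CPM in shZdhhc17 libraries and to 4220, 3080 and 3448 CPM in shSCR libraries. These sums rest in part on Lcn2, at 1360, 1302 and 1459 CPM in shZdhhc17 and 880, 791 and 322 CPM in shSCR libraries. Whether the carcinoma cells made the Lcn2 transcripts was not tested. Taken singly, 9 of the 12 stood lower and 3 higher in shZdhhc17, and their median log2 fold change was -0.43. By edgeR 3 were lower and 2 higher at an unadjusted p under 0.05, and 0 passed after adjustment. Their mean log2(CPM + 1) was 6.90 in shZdhhc17 and 7.19 in shSCR (exact two-sided permutation p = 0.4). The 19 hepatocyte markers, which include albumin but no clotting gene, summed to 46701, 64866 and 56395 CPM in shZdhhc17 libraries and to 57616, 43474 and 23697 CPM in shSCR libraries. No marker on either list was at 0 in all libraries. In shSCR replicate 3 the hepatocyte sum stood 1.08 below the mean of the other shSCR libraries on the log2 scale. The mean log2(CPM + 1) of the hepatocyte list did not differ beyond the spread between libraries (10.2 in shZdhhc17 and 9.86 in shSCR, exact two-sided permutation p = 0.5, where 3 against 3 cannot go below 0.1). Gene by gene, 15 of the 19 markers had a positive log2 fold change, with a median of 0.37.

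Clotting genes as a group stood higher on average in shZdhhc17 metastases, and none passed the test over all genes. Their summed CPM overlapped between the groups, at 35202, 50602 and 52021 in shZdhhc17 and 41615, 30541 and 15215 in shSCR libraries. All 31 tested members had a positive log2 fold change, with a median of 0.64, where 50.3% of all genes tested were positive and their median was 0.0017. The members are not separate observations, since over the 6 libraries they correlated with the summed hepatocyte markers at 0.60 to 0.99 (log2 scale). Hepatocyte markers were also mostly positive (15 of 19, median 0.37), as were acute phase genes of the liver (15 of 15, median 0.95). At an adjusted p under 0.05, edgeR's quasi-likelihood test called 0 members and 0% of all genes. At that level DESeq2 called 0 members and 0.393% of all genes higher, and limma voom called 0 members and 0 of all genes tested. At an unadjusted p under 0.05, 6 members were higher and 0 lower by edgeR, against 4.72% of all genes higher and 6.71% lower. DESeq2 had 11 members at that level (3.87% of all genes) and voom 7 (4.84% of all genes), all higher. The 6 were F13a1, Pros1, F5, F11, Kng2 and Serpinf2. For 3 members (F13a1, Pros1 and Hrg) every shZdhhc17 library lay above every shSCR library, against 7.48% of all genes, a share near that of the members. For 0 members every shZdhhc17 library lay below, against 9.62% of all genes. Since the tissue was sequenced in bulk, more cells of a type and more RNA per cell cannot be told apart.

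**Figure D1:**
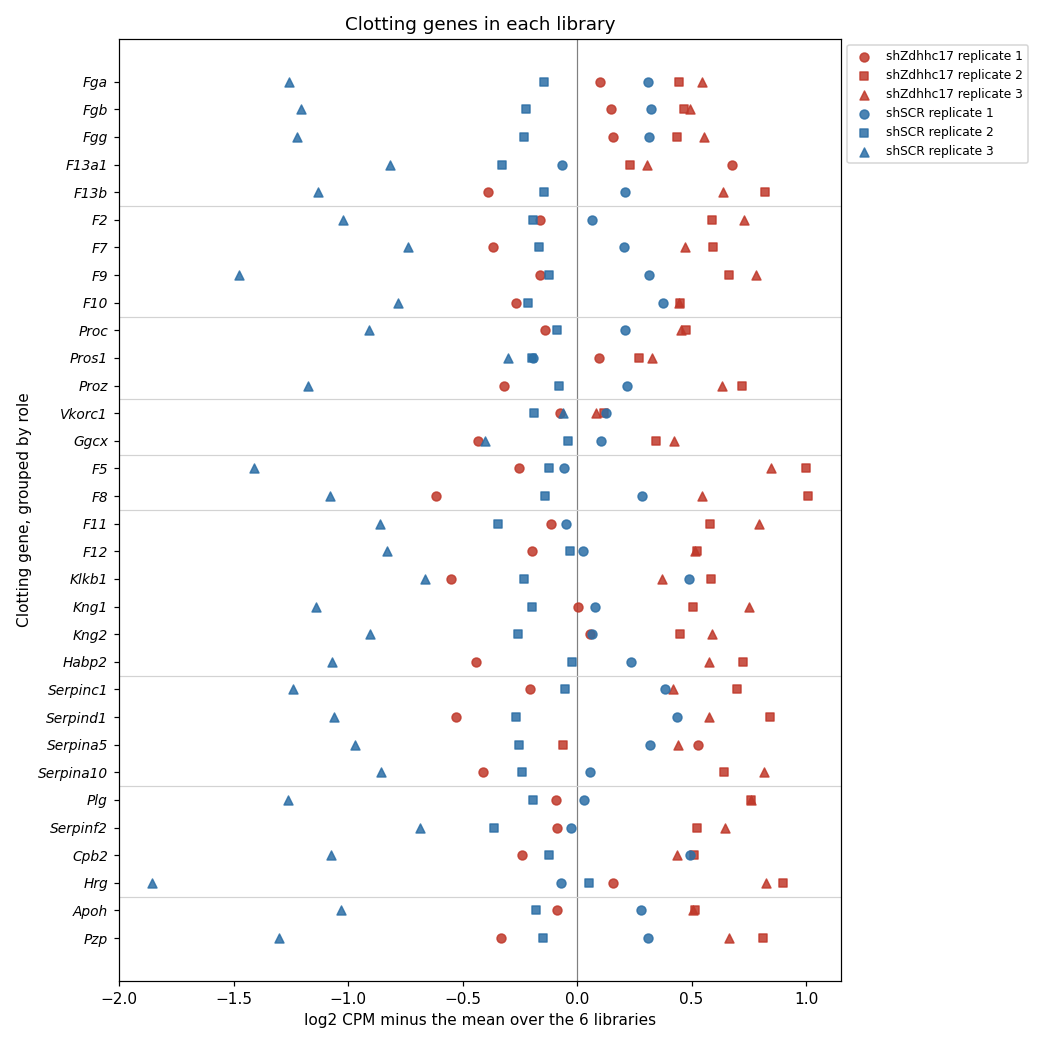
Level of each of the 32 clotting genes in each library, as log2 CPM minus the gene's mean over the 6 libraries (x axis), with genes grouped by role (y axis, rows separated by grey lines). Red symbols are shZdhhc17 and blue symbols shSCR libraries, with a circle, a square and a triangle for replicates 1, 2 and 3; shSCR replicate 3 is the lowest library for 30 genes.

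Most members followed a similar order of libraries, and the spread within each group was wide. In 30 of 32 members shSCR replicate 3 was the lowest of the 6 libraries. In 30 members shZdhhc17 replicate 1 lay below both other shZdhhc17 libraries, and in 27 members it lay within the range of the shSCR libraries. By contrast shZdhhc17 replicates 2 and 3 both lay above every shSCR library in 28 members. The 32 genes together took 3.53%, 4.65% and 4.91% of the counts in shZdhhc17 replicates 1, 2 and 3, against 3.98%, 3.27% and 1.69% in shSCR replicates 1, 2 and 3. Without shSCR replicate 3 the median log2 fold change was 0.33, and 4 of 32 tested members (F13a1, Pros1, F11 and Hrg) had an unadjusted p under 0.05, against 3.40% of all genes. Without shZdhhc17 replicate 1 the median was 0.84, with 15 members at an unadjusted p under 0.05 (background 6.96%) and 28 whose groups did not overlap (background 18.6%). All tested members were positive in both fits (53% of all genes were positive without shSCR replicate 3), and 0 passed after adjustment in either.

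The counts of members depended on which libraries entered, and so did the share of all genes. At an unadjusted p under 0.05, 3 members were higher without shZdhhc17 replicate 2 (background 2.75%), 2 without shZdhhc17 replicate 3 (background 2.18%), 12 without shSCR replicate 1 (background 7.12%) and 4 without shSCR replicate 2 (background 3.54%). Without shSCR replicate 1 the groups did not overlap for 14 members (background 16.9%), and without shZdhhc17 replicate 2 for 4 (background 10.2%). They did not overlap for 3 members without shZdhhc17 replicate 3 (background 10.1%), shSCR replicate 2 (background 10.9%) or shSCR replicate 3 (background 11.6%). With both shZdhhc17 replicate 1 and shSCR replicate 3 left out, a choice made after seeing the data, 21 members were higher at that level (background 7.4%) and 28 did not overlap (background 22.5%). With the replicate number as a block 2 members were higher at that level (background 3.94%). With library totals alone 6 were (background 2.55%), and 6 did not overlap (background 4.06%). F13a1 and Pros1 were among the members in each of these counts at an unadjusted p under 0.05.

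Fibrinogen, the precursor of fibrin, was by far the most abundant product of the group. Fga, Fgb and Fgg encode its alpha, beta and gamma chains. Fga (ENSMUSG00000028001.17) stood at 8279, 10485 and 11260.2 CPM in shZdhhc17 libraries, against 9568, 6986 and 3228 CPM in shSCR libraries. Replicates 2 and 3 of shZdhhc17 lay above all shSCR values, and replicate 1 lay between shSCR replicates 1 and 2. Its log2 fold change was 0.60 ± 0.43 (SE; edgeR adjusted p = 0.601). Fgb stood at 8293, 10323 and 10531 CPM in shZdhhc17 libraries, against 9356, 6400.1 and 3248 CPM in shSCR libraries. Fgg stood at 6165, 7464 and 8098 CPM in shZdhhc17 libraries, against 6854, 4701 and 2364 CPM in shSCR libraries. Both chains showed the same order of libraries as Fga, with log2 fold changes of 0.62 ± 0.42 and 0.64 ± 0.41 (SE; edgeR adjusted p = 0.580 and 0.560). Per kilobase of annotated exon, Fgg, Fga and Fgb averaged 3460.3, 3325 and 2550.0 CPM per kb in shZdhhc17 and 2217, 2191 and 1663 in shSCR libraries. Of the CPM per kb of all 3 chains, Fga made up 34.9%, 35.7% and 36.1% in shZdhhc17 libraries and 35.7%, 37.2% and 35.1% in shSCR libraries, and Fgb stayed between 26.6% and 27.8% in shZdhhc17 and between 26.9% and 27.9% in shSCR libraries. The chains thus kept their proportions while the total varied.

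The subunits of factor XIII, the transglutaminase that crosslinks fibrin, come from different cells. F13b, the carrier subunit made by hepatocytes, stood at 63.5, 147 and 129 CPM in shZdhhc17 libraries, against 96.1, 75.2 and 38.0 CPM in shSCR libraries, and the groups overlapped. F13a1 (ENSMUSG00000039109.18), the catalytic subunit made by macrophages and megakaryocytes, stood at 54.0, 39.7 and 41.7 CPM in shZdhhc17 libraries, against 32.3, 27.0 and 19.2 CPM in shSCR libraries. The groups did not overlap, and the highest library was shZdhhc17 replicate 1, unlike in nearly all other members. The log2 fold change was 0.79 ± 0.22 (SE; edgeR adjusted p = 0.322). Macrophage and platelet markers also stood higher on average in shZdhhc17 libraries. The mean log2(CPM + 1) of 12 macrophage markers was 6.17, 6.58 and 6.61 in shZdhhc17 and 5.88, 6.35 and 5.75 in shSCR libraries, with 8 of 12 log2 fold changes positive. For 10 platelet markers it was 2.13, 2.01 and 2.66 in shZdhhc17 and 1.48, 1.89 and 1.45 in shSCR libraries, with 7 of 7 tested markers positive. The groups did not overlap for the platelet list (exact two-sided permutation p = 0.1) and overlapped for the macrophage list (p = 0.2 by the same test). By edgeR 3 platelet and 4 macrophage markers were higher at an unadjusted p under 0.05, and 0 passed after adjustment. Neutrophil markers, a list with no clotting gene, had the largest median log2 fold change of the cell type lists, 1.86, with 9 of 10 positive. By edgeR 7 were higher at an unadjusted p under 0.05 (background 4.72%) and 0 passed after adjustment. Their mean log2(CPM + 1) was 5.15, 4.74 and 5.45 in shZdhhc17 and 3.16, 4.42 and 3.15 in shSCR libraries, without overlap (exact two-sided permutation p = 0.1, the smallest that 3 against 3 allows). The stellate cell list had 8 of 12 positive with a median of 0.16, and the cholangiocyte list 5 of 6 tested with a median of 0.36. The part of these cell types in the F13a1 difference, or in those of the other members, was not tested.

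Among the vitamin K-dependent procoagulant proteases, F2, the precursor of thrombin, was the most abundant per kilobase. F2 (ENSMUSG00000027249.16) stood at 886, 1489 and 1638 CPM in shZdhhc17 libraries, against 1036, 865 and 487 CPM in shSCR libraries. The groups overlapped through shZdhhc17 replicate 1, and the log2 fold change was 0.75 ± 0.35 (SE; edgeR adjusted p = 0.465). F9, the protease missing in haemophilia B, stood at 94.4, 167 and 181 CPM in shZdhhc17 libraries, against 131, 96.9 and 38.0 CPM in shSCR libraries. F10, which cuts prothrombin, stood at 211, 346 and 345 CPM in shZdhhc17 libraries, against 328, 218 and 147 CPM in shSCR libraries. F7, the partner of tissue factor, stood at 40.9, 79.6 and 73.1 CPM in shZdhhc17 libraries, against 60.8, 47.0 and 31.6 CPM in shSCR libraries. In each of F9, F10 and F7, shZdhhc17 replicate 1 lay within the range of the shSCR libraries. F7 was the least abundant per kilobase of these 4, at 34.7 CPM per kb in shZdhhc17 and 25.0 in shSCR. The log2 fold changes of F9, F10 and F7 were 0.73 ± 0.44, 0.38 ± 0.32 and 0.47 ± 0.31 (SE), and none passed.

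The anticoagulant members of the vitamin K-dependent group differed in how tightly their libraries agreed. Pros1 (ENSMUSG00000022912.9) encodes protein S, the cofactor of activated protein C, and is expressed by many cell types besides hepatocytes. It stood at 101, 114 and 119 CPM in shZdhhc17 libraries, against 83.1, 82.7 and 77.1 CPM in shSCR libraries. The groups did not overlap, and shSCR replicate 3 stood only 0.11 below the mean of the other shSCR libraries on the log2 scale. The log2 fold change was 0.46 ± 0.12 (SE; edgeR adjusted p = 0.307), and it ran from 0.42 to 0.54 when single libraries were left out. Proc, the precursor of activated protein C, stood at 234, 358 and 353 CPM in shZdhhc17 libraries, against 298, 243 and 138 CPM in shSCR libraries (log2 fold change 0.48 ± 0.31 SE; edgeR adjusted p = 0.560). Proz, the cofactor of an inhibitor of factor Xa, stood at 149, 306 and 289 CPM in shZdhhc17 libraries, against 216, 176 and 82.4 CPM in shSCR libraries. Both overlapped between the groups.

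The enzymes that serve these proteins had the smallest median log2 fold change of any role, 0.17. Vkorc1, the vitamin K epoxide reductase targeted by warfarin, stood at 19.3, 22.1 and 21.6 CPM in shZdhhc17 libraries, against 22.2, 17.9 and 19.5 CPM in shSCR libraries. Ggcx, the carboxylase that modifies the glutamates, stood at 30.1, 51.6 and 54.5 CPM in shZdhhc17 libraries, against 43.7, 39.5 and 30.7 CPM in shSCR libraries. Their log2 fold changes were 0.08 ± 0.14 and 0.26 ± 0.24 (SE; edgeR adjusted p = 0.845 and 0.701). With library totals alone as the scale, which lowered the median of all genes to -0.13, Vkorc1 turned to -0.046. These 2 genes, unlike the secreted proteins, were not lowest in shSCR replicate 3.

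Factor V and factor VIII are the cofactors that speed the proteases. F5 (ENSMUSG00000026579.9) stood at 281, 669.5 and 602 CPM in shZdhhc17 libraries, against 322, 308 and 126 CPM in shSCR libraries. Replicates 2 and 3 of shZdhhc17 were both above every shSCR library, and replicate 1 was below shSCR replicates 1 and 2. The log2 fold change was 1.04 ± 0.44 (SE; edgeR adjusted p = 0.436), and 0.71 without shSCR replicate 3. F8, made mainly by liver endothelium, stood at 6.98, 21.6 and 15.6 CPM in shZdhhc17 libraries, against 13.03, 9.73 and 5.08 CPM in shSCR libraries (log2 fold change 0.67 ± 0.46 SE; edgeR adjusted p = 0.590). The mean log2(CPM + 1) of 12 liver endothelial markers was 5.46, 5.90 and 5.82 in shZdhhc17 and 5.56, 5.64 and 5.31 in shSCR libraries, and their part in the F8 values was not tested.

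Contact system members, which start clotting on negatively charged surfaces and release bradykinin, were most abundant per kilobase for the kininogens, precursors of bradykinin. Kng1 (ENSMUSG00000022875.19) stood at 2007, 2844 and 3365 CPM in shZdhhc17 libraries, against 2115, 1748 and 908 CPM in shSCR libraries (log2 fold change 0.78 ± 0.37 SE; edgeR adjusted p = 0.464). Kng2 (ENSMUSG00000060459.15) stood at 309, 406 and 447 CPM in shZdhhc17 libraries, against 310.5, 248 and 159 CPM in shSCR libraries (log2 fold change 0.70 ± 0.27 SE; edgeR adjusted p = 0.409). Kng1 and Kng2 are close copies, so how reads were shared between them is uncertain. F11 (ENSMUSG00000031645.5), the protease that activates factor IX, stood at 59.9, 96.9 and 113 CPM in shZdhhc17 libraries, against 62.7, 51.1 and 35.7 CPM in shSCR libraries. The groups overlapped by shZdhhc17 replicate 1 and shSCR replicate 1 alone. Its log2 fold change was 0.85 ± 0.28 (SE; edgeR adjusted p = 0.378), and 0.66 without shSCR replicate 3. F12, which starts the contact pathway, Habp2, a protease that activates factor VII, and Klkb1, the precursor of plasma kallikrein, had log2 fold changes of 0.55 ± 0.28, 0.56 ± 0.40 and 0.27 ± 0.36 (SE) and did not pass. F12 stood at 132, 218 and 216 CPM in shZdhhc17 libraries, against 154, 148 and 85.2 CPM in shSCR libraries. Habp2 stood at 77.7, 174 and 157 CPM in shZdhhc17 libraries, against 124, 104 and 50.2 CPM in shSCR libraries. Klkb1 stood at 42.0, 92.1 and 79.3 CPM in shZdhhc17 libraries, against 86.1, 52.3 and 38.8 CPM in shSCR libraries. In all 3 the groups overlapped, and for Klkb1 shSCR replicate 1 was above shZdhhc17 replicate 3.

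Of the serpins that block the proteases, 3 were tested, and each was lowest in shSCR replicate 3. Serpinc1 (ENSMUSG00000026715.13), or antithrombin, stood at 632, 1180.5 and 972 CPM in shZdhhc17 libraries, against 949.6, 702 and 308 CPM in shSCR libraries (log2 fold change 0.51 ± 0.42 SE; edgeR adjusted p = 0.656). Serpina10, the inhibitor of factor Xa that works with protein Z, stood at 264, 547 and 619 CPM in shZdhhc17 libraries, against 365, 297 and 194 CPM in shSCR libraries. Serpind1, or heparin cofactor II, stood at 108, 280.1 and 233 CPM in shZdhhc17 libraries, against 211, 129.8 and 74.9 CPM in shSCR libraries. Their log2 fold changes were 0.74 ± 0.36 and 0.58 ± 0.45 (SE), and the groups overlapped in all 3 serpins. Serpina5, the protein C inhibitor, which in mice is made mainly in the reproductive tract, had 10, 7 and 9 counts in shZdhhc17 and 10, 7 and 4 counts in shSCR libraries, too few to pass the filter.

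Fibrinolysis genes had the highest median log2 fold change of the roles with more than 2 members, 0.81. Hrg (ENSMUSG00000022877.10), a histidine-rich plasma protein that binds heparin and plasminogen, stood at 505, 846 and 802 CPM in shZdhhc17 libraries, against 432, 469 and 125 CPM in shSCR libraries. The groups did not overlap, and shSCR replicate 3 lay 1.85 below the mean of the other shSCR libraries on the log2 scale. The log2 fold change was 1.07 ± 0.48 (SE; edgeR adjusted p = 0.450), and 0.67 without shSCR replicate 3. Plg (ENSMUSG00000059481.6), the precursor of plasmin, stood at 1514, 2729.8 and 2727 CPM in shZdhhc17 libraries, against 1647, 1413 and 673 CPM in shSCR libraries (log2 fold change 0.90 ± 0.40 SE; edgeR adjusted p = 0.442). Serpinf2 (ENSMUSG00000038224.13), the antiplasmin that blocks plasmin, stood at 650.4, 994 and 1082 CPM in shZdhhc17 libraries, against 679, 538 and 431 CPM in shSCR libraries. Its log2 fold change was 0.73 ± 0.27 (SE; edgeR adjusted p = 0.405). The groups overlapped in both genes through shZdhhc17 replicate 1. Cpb2, the carboxypeptidase that protects fibrin from plasmin, stood at 213, 358 and 341 CPM in shZdhhc17 libraries, against 354, 231 and 119 CPM in shSCR libraries. Its log2 fold change was 0.37 ± 0.39 (SE; edgeR adjusted p = 0.732), and 0.05 without shSCR replicate 3.

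**Figure D2:**
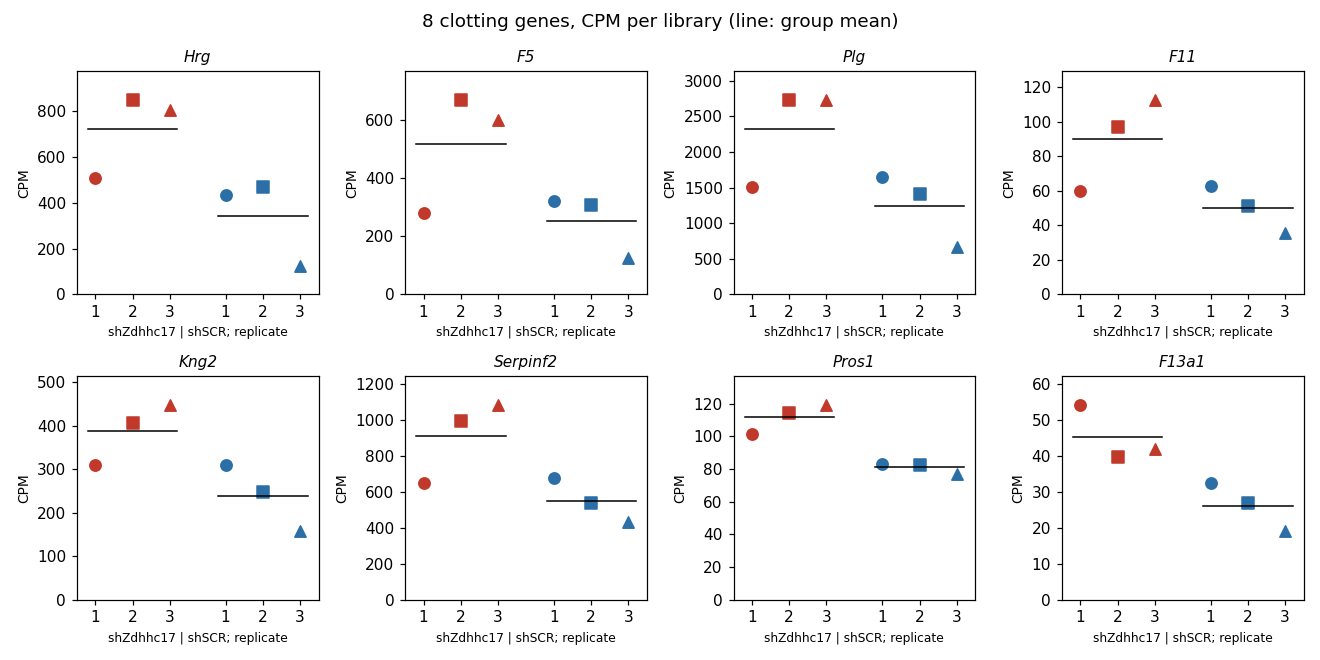
CPM (y axes, from 0) of 8 clotting genes in shZdhhc17 (red, left) and shSCR libraries (blue, right), 1 symbol per replicate with the group mean as a line. Pros1 and F13a1 do not overlap between the groups, while F5, Plg, F11, Kng2 and Serpinf2 overlap through shZdhhc17 replicate 1, and Hrg is lowest in shSCR replicate 3 at 125 CPM.

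The remaining plasma proteins were Pzp and Apoh, and both overlapped between the groups. Pzp, a broad protease inhibitor of the alpha-2-macroglobulin family, stood at 2925, 6455 and 5826 CPM in shZdhhc17 libraries, against 4564, 3316 and 1491 CPM in shSCR libraries (log2 fold change 0.70 ± 0.48 SE; edgeR adjusted p = 0.584). Apoh, a phospholipid-binding plasma protein also called beta-2-glycoprotein I, stood at 855, 1296 and 1289.9 CPM in shZdhhc17 libraries, against 1100.2, 800.1 and 444 CPM in shSCR libraries (log2 fold change 0.55 ± 0.35 SE). Per kilobase, both ranked with Kng1 just below fibrinogen, at 790.3 and 719.5 CPM per kb in shZdhhc17 and 487 and 490.2 in shSCR libraries. At the other end, above Serpina5 alone, stood F13a1, with 6.70 CPM per kb in shZdhhc17 and 3.88 in shSCR, and F8, with 1.49 in shZdhhc17 and 0.937 in shSCR.

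**Figure D3:**
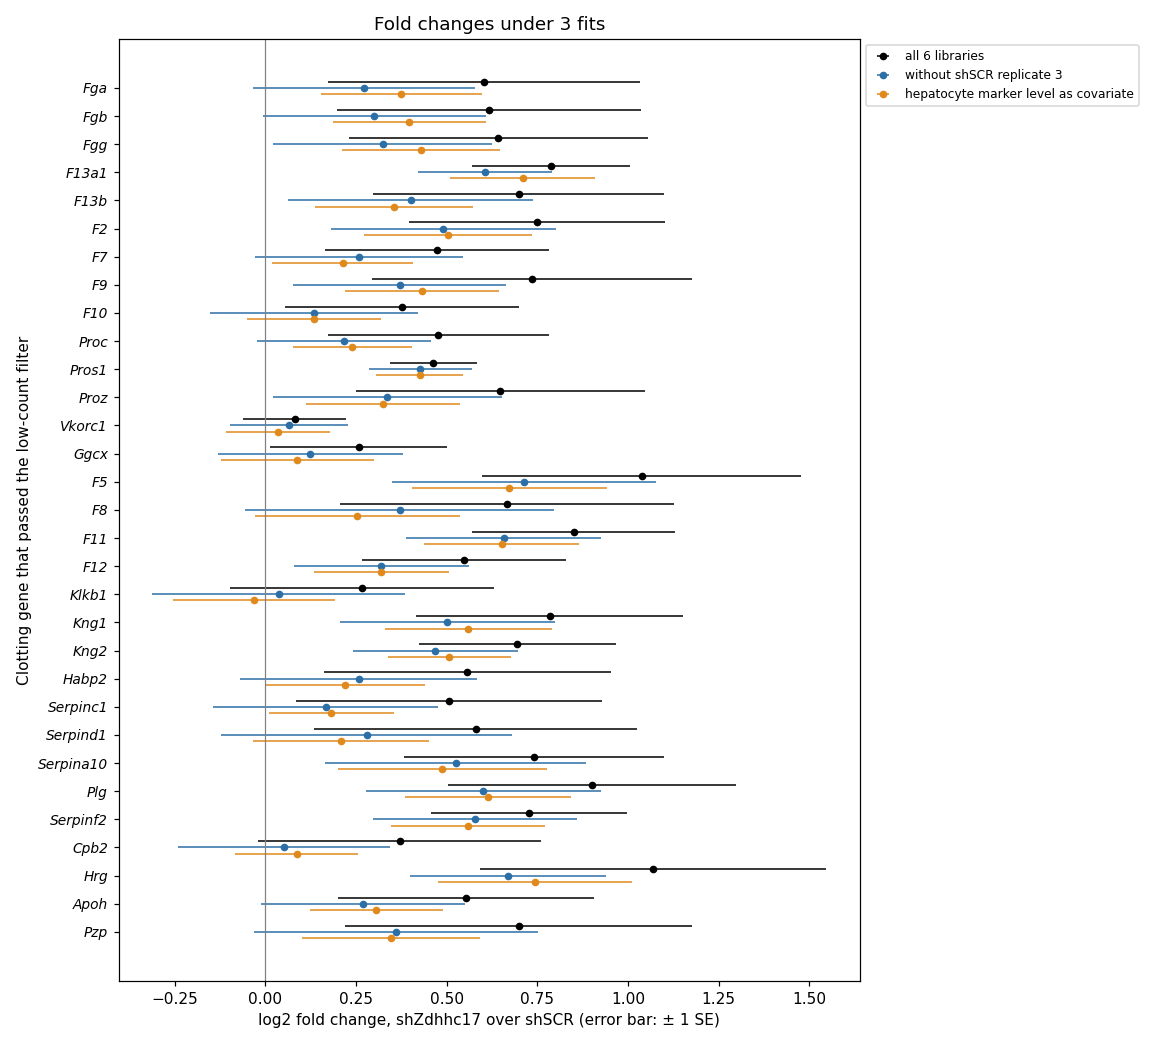
Log2 fold change of shZdhhc17 over shSCR (x axis) for the 31 tested clotting genes (y axis), with bars of 1 SE. Black is the fit to all 6 libraries, blue the fit without shSCR replicate 3, and orange the fit that adjusts for the hepatocyte marker level; most values are smaller in the blue and orange fits, while Pros1 stays at 0.46, 0.43 and 0.43.

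Since hepatocyte markers varied between libraries, the members were also set against them. Summed over all 32 genes, the clotting transcripts came to 754, 780.1 and 922 CPM per 1000 CPM of hepatocyte markers in shZdhhc17 libraries, against 722, 703 and 642 in shSCR libraries. Every shZdhhc17 library lay above every shSCR library on this scale, by the least between replicate 1 of each group. A few abundant transcripts weigh most in both sums. In shZdhhc17 replicate 1 the fibrinogen chains took 2.28% of the counts, of 3.53% for all 32 genes. Alb made up 18212 of the 46701 CPM of hepatocyte markers in that library. Taken singly, Fga, Fgb and Fgg each overlapped between the groups on this scale. Gene by gene 25 of 32 members were higher in shZdhhc17, with a median difference of 0.18 in log2 ratio, where the median over all tested genes was -0.50. The rest were lower on this scale, namely F7, F10, Pros1 (-0.05), Vkorc1 (-0.42), Ggcx, Klkb1 and Cpb2. The groups did not overlap for 2 members, Hrg and Kng1, both higher, against 0.964% of all genes, and 0 members were lower without overlap, against 9.46%. The denominator itself was lowest in shSCR replicate 3, and 8.47% of all tested genes were positive on this scale. Such a background is largely set by the denominator and is no measure for a liver gene. Hrg stood at 10.8, 13.05 and 14.2 per 1000 in shZdhhc17 and at 7.50, 10.8 and 5.28 in shSCR libraries, with shZdhhc17 replicate 1 only just above shSCR replicate 2. Kng1 stood at 43.0, 43.8 and 59.7 per 1000 in shZdhhc17 and at 36.7, 40.2 and 38.3 in shSCR libraries. In a fit that adjusts for the hepatocyte marker level, 30 of 31 members kept a positive log2 fold change (52.6% of all genes), Klkb1 turned to -0.032, and the median was 0.36. In that fit 9 members were higher at an unadjusted p under 0.05, against 5.29% of all genes, 0 were lower, against 5.58%, and 0 passed after adjustment. Hrg had 0.74 ± 0.27, F13a1 0.71 ± 0.20, F5 0.67 ± 0.27, F11 0.65 ± 0.21 and Plg 0.61 ± 0.23 (SE), the smallest edgeR adjusted p among all members being 0.309, that of Pros1.

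**Figure D4:**
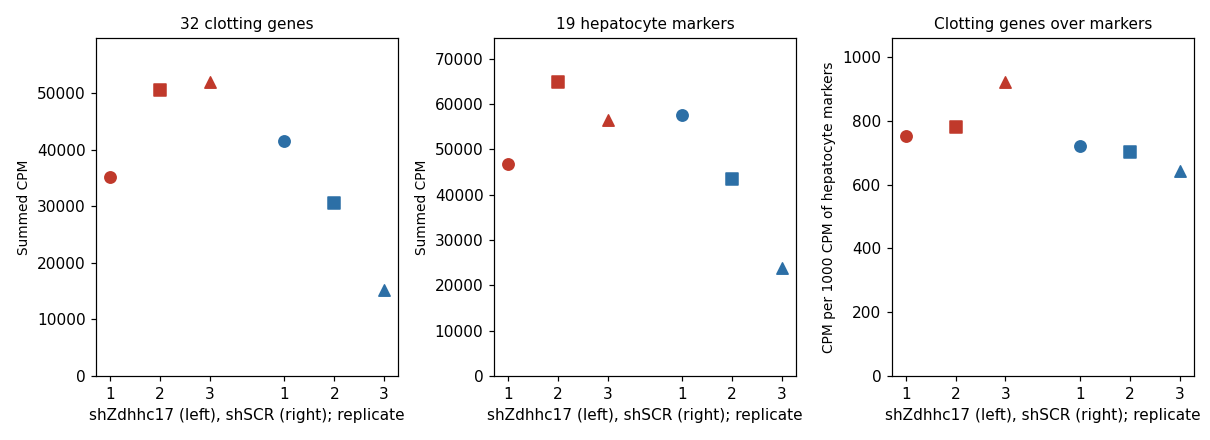
Summed CPM of the 32 clotting genes (left), summed CPM of 19 hepatocyte markers (middle) and their ratio per 1000 (right), 1 symbol per library with shZdhhc17 in red and shSCR in blue. Both sums are lowest in shSCR replicate 3, at 15215 and 23697 CPM, while the ratio spans 642 to 922.

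Several members lie next to each other in the genome, in the order Fgg, Fga, Fgb, in the order Hrg, Kng2, Kng1, in the order F7, F10, Proz, and as the pair F11 and Klkb1. Ratios of neighbours were compared between the groups in all 7 such pairs. The groups overlapped in 6 of them. The ratio of F11 to Klkb1 was 1.43, 1.05 and 1.42 in shZdhhc17 libraries, against 0.728, 0.977 and 0.921 in shSCR libraries, without overlap and with a difference of 0.57 in mean log2 ratio (exact two-sided permutation p = 0.1, the smallest that 3 against 3 allows). Ratios of neighbouring coding genes did not overlap in 18.8% of 10411 pairs across the genome, so 1 of 7 is near the background. The ratio of Fgg to Fga stayed between 0.712 and 0.745 in shZdhhc17 libraries and between 0.673 and 0.732 in shSCR libraries.

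**Figure D5:**
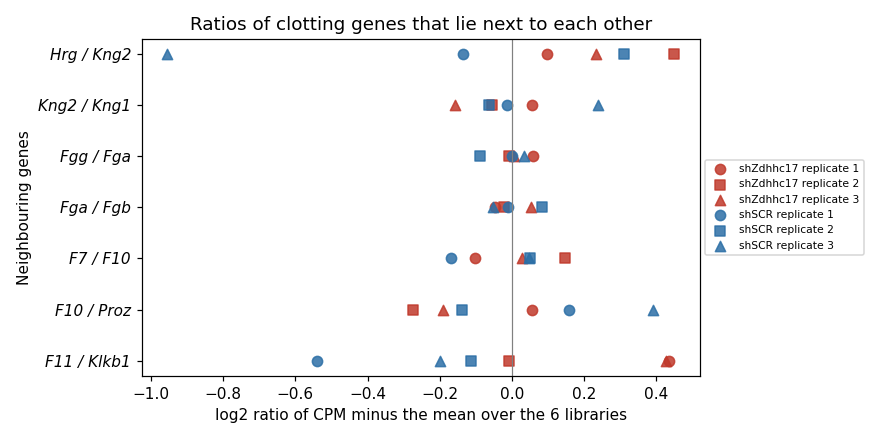
Log2 ratio of CPM for 7 pairs of neighbouring clotting genes, minus the pair's mean over the 6 libraries (x axis); red is shZdhhc17, blue is shSCR, and the symbol gives the replicate. The fibrinogen pairs vary least, and F11 over Klkb1 is the pair whose groups do not overlap.

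Other genes of the pathway showed no common direction. Of 30 such genes, all tested, 16 stood higher and 14 lower in shZdhhc17, and their median log2 fold change was 0.06. At an unadjusted p under 0.05, 2 were higher and 0 lower, against 4.72% and 6.71% of all genes, and 0 passed. The 2 were Thbd and Furin. Thbd, the endothelial thrombin receptor through which protein C is activated, stood at 22.6 ± 2.25 CPM in shZdhhc17 and 7.87 ± 0.404 CPM in shSCR libraries (SD over 3 libraries each). Furin, a protease that cuts precursor proteins, stood at 246 ± 26.7 CPM in shZdhhc17 libraries and 186 ± 20.6 CPM in shSCR libraries (SD over 3 libraries each). The log2 fold changes of Thbd and Furin were 1.52 ± 0.15 and 0.40 ± 0.16 (SE, edgeR adjusted p = 0.0906 and 0.408). Tissue factor, encoded by F3, which starts clotting in vivo, stood at 6.98 ± 0.888 CPM in shZdhhc17 and 8.44 ± 0.957 CPM in shSCR (log2 fold change -0.27 ± 0.19 SE).

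The authors also tested gene sets on these same libraries, so their lists are not independent evidence. The tables name shZdhhc17 against shSCR as the contrast, while the column description deposited with them names another one. In the authors' deposited table of gene sets, the hallmark coagulation set ranked 1 among sets higher in shZdhhc17, with a normalized enrichment score of 2.09 and a q-value of 1.18e-05. That set held 136 genes, with 46 in its leading edge in the authors' deposited table. Of the 136, 17 are members described here, and 12 of these stood in the leading edge in the authors' deposited table. The curated set of complement and coagulation cascades ranked 3 in the authors' deposited table (score 1.97, q-value 0.00509). It held 23 members, and 18 of them stood among the 42 genes of its leading edge in the authors' deposited table. The set for fibrin clot formation ranked 8 in the authors' deposited table (score 1.88, q-value 0.0825). A second curated set of complement and coagulation ranked 6 in the authors' deposited table (score 1.90, q-value 0.0164). The narrower clotting sets had larger q-values in the authors' deposited table, at 0.180 for the common pathway, 0.210 for the intrinsic pathway, 0.442 for a blood clotting cascade set ranked 230, 0.451 for dissolution of the clot and 0.763 for the extrinsic pathway, ranked 754. By gene, the authors' deposited table held 0 members with a q-value under 0.05, against 0.406% of all genes higher, the smallest being 0.0953 for F13a1. It held 11 members with a p-value under 0.05, against 3.87% of all genes higher.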

How the data were processed

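RNA from dissected liver metastases went into a stranded, poly-A selected mRNA library kit, per the labels' protocols. The authors deposited raw counts per gene for 6 libraries, without normalization. Per the submitters' processing notes, the tools were STAR 2.6.1, FastQC 0.11.8, DESeq2 1.34.0 and HTSeq, with no role given for any. Gene symbols follow GRCm39, per the column description the authors deposited. Whether reads were counted by strand was not given in the sources used. The authors also deposited log2 fold changes, p-values and q-values of shZdhhc17 against shSCR, and enrichment scores of gene sets together with their p-values and q-values, per the file headers.

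Groups and replicate numbers came from the sample titles, and every count column was matched to a library. Genes were tested two-sided with edgeR 4.0.16 (glmQLFTest after a robust glmQLFit) with TMM normalization and filterByExpr over all genes, with Benjamini-Hochberg adjustment and a threshold of 0.05, in R 4.3.3. Each SE is the absolute log2 fold change over the square root of F. The code was tested on simulated data. Lengths for CPM per kb are the union of all GENCODE vM21 exons of a gene, so long rare transcripts lower a value. Motifs were matched exactly on both strands. Of 20 hepatocyte markers listed, 19 were matched. Replicates differed by a chi-square of at least 14.9 per gene, far above sampling noise, so none is a repeat of another. The members, lists and role groups were chosen with earlier results of these data known. All 32 members are named, with full statistics for those at an unadjusted p under 0.05, with groups that do not overlap, or highest in their role by mean CPM. Other genes named are Zdhhc17, other pathway genes at an unadjusted p under 0.05, and F3, Hnf4a and Cp, chosen after their values were seen. Alternatives were RLE size factors, library totals, other filters, DESeq2 1.42.0, limma voom (limma 3.58.1), a replicate block, a hepatocyte covariate, and leaving out libraries.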

Additional observations from a re-analysis of the deposited data

How the results depend on the processing

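Under every alternative 0 members passed after adjustment. The count at an unadjusted p under 0.05, 6 by edgeR, was 11 with DESeq2 and 2 with the replicate block. Leaving out single libraries gave 2 to 15, the lowest without shZdhhc17 replicate 3 and the highest without its replicate 1. It was 3 without shZdhhc17 replicate 2, 4 without shSCR replicate 2 or 3, and 12 without shSCR replicate 1. The count of members whose groups do not overlap, 3, was 6 with library totals alone and ran from 3 to 28 without single libraries, with 14 without shSCR replicate 1. The share of all genes was 4.06% with library totals alone and ran from 10.1% to 18.6% without single libraries. The median log2 fold change ran from 0.33 (without shSCR replicate 3) to 0.96 (without shSCR replicate 1). Leaving out shZdhhc17 replicate 1 and shSCR replicate 3 together, an alternative chosen after seeing the data, gave 21 members at an unadjusted p under 0.05 (background 7.40%) and 28 without overlap (background 22.5%), with a median of 0.52. The log2 fold changes of single members reversed in 2 cases among these fits, Vkorc1 with library totals alone (-0.046) and Klkb1 with the hepatocyte covariate (-0.032). The cause was not tested. The replicate block moved the median to 0.70. Same-numbered libraries deviated from their group means with correlations of -0.06, 0.32 and -0.05 over genes, and not every library correlated best with its own number, so the numbers were not taken as pairs. The median ratio of members to hepatocyte markers kept its direction with either other denominator, the marker sum without Alb or the geometric mean of marker CPM + 1. With 3 libraries per group and SEs mostly above 0.3, changes of the size seen here are not resolved for most members.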

Other observations

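Summed levels of acute phase genes and of liver transcription factors were, like those of the clotting genes, lowest in shSCR replicate 3. The 15 acute phase genes, which the liver makes in inflammation and among which fibrinogen is usually counted, all stood higher in shZdhhc17 (median log2 fold change 0.95). By edgeR 8 had an unadjusted p under 0.05, against 4.72% of all genes higher, and none passed after adjustment. They summed to 24493, 37229 and 41344 CPM in shZdhhc17 libraries and to 24953, 19723 and 10771 CPM in shSCR libraries. Cp, the copper carrier ceruloplasmin, stood at 3151 ± 439 CPM in shZdhhc17 libraries and 1562 ± 304 CPM in shSCR libraries (SD over 3 each; log2 fold change 1.01 ± 0.26 SE; edgeR adjusted p = 0.307). Of 12 transcription factors that maintain hepatocyte expression, 11 stood higher in shZdhhc17 (median log2 fold change 0.59), and 3 were higher at an unadjusted p under 0.05 (background 4.72%). Hnf4a, which drives many liver genes and is also on the hepatocyte marker list, stood at 356 ± 53.9 CPM in shZdhhc17 libraries and 229 ± 89.8 CPM in shSCR libraries (SD over 3 each; log2 fold change 0.64 ± 0.31 SE; edgeR adjusted p = 0.476).

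Within the shSCR group, the drop of shSCR replicate 3 differed between members. It was -1.08 on the log2 scale for the sum of hepatocyte markers. Relative to the mean of the other shSCR libraries, that library stood at -1.85 for Hrg, -1.57 for F9 and -1.41 for Serpinc1, but at -0.49 for Serpinf2, -0.43 for Ggcx, -0.11 for Pros1 and -0.03 for Vkorc1. These are values of single libraries, without a replicate check.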
